A study of Mus musculus with 18 samples.

Results

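The comparison described here is that of *Cd2ap* mutant with control mesangial cells, sorted from the glomeruli of mice at 5 weeks of age and profiled on Affymetrix Mouse Gene ST arrays. It rests on 6 of the 18 arrays of a study that sorted mesangial cells, podocytes and endothelial cells, with 3 arrays per genotype and cell type. Of the 28856 transcript clusters on the array (a cluster is the set of probes summarised to 1 signal, usually 1 gene), 11457 reached a signal of 100 on 1 or more of the 6 mesangial arrays and were tested, 9430 of them assigned to exactly 1 gene symbol. The mutants were *Cd2ap*-/- mice carrying the B6.129X1-*Cd2ap* tm1Shaw/J allele, which is inactivated in every cell of the animal and not only in the mesangium. The control arrays are wildtype in the sample records, while their data columns are marked +:-, and whether they were heterozygous is not given in the sources used here. The control columns of the podocytes and endothelial cells are marked with 2 plus signs instead. Both genotypes carried the *Meis1-GFP* transgene Tg(*Meis1-EGFP*)FO156Gsat, and it was the fluorescence driven by this *Meis1* reporter that was sorted, from glomeruli isolated by sieving and dissociated to single cells. RNA of the sorted cells was amplified by Ribo-SPIA, a linear amplification, before hybridization. The series is described as biological triplicates. The arrays of each genotype are named A, B and C, and a letter does not pair a mutant with a control array. Where 3 signals are set against 3, the mutant arrays A, B and C come first and the control arrays A, B and C second.

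Mesangial cells are the contractile pericyte-like cells between the capillary loops of the glomerulus, where they hold the loops together, make the mesangial matrix and answer vasoactive and growth factor signals. PDGF-B from endothelial cells acting on PDGFR-beta is needed for their recruitment, and integrin alpha8 marks them in the mature kidney. CD2AP is an adapter protein best known from the podocyte slit diaphragm, and its loss leads to proteinuria and focal segmental glomerulosclerosis. The mesangium often widens and gains matrix in such disease.

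The sorted cells carried many markers of their label. Of 20 mesangial and pericyte markers, 19 reached the signal minimum on at least 1 array. *Tbx18* reached it on mutant array C only, at 111.1. *Foxd1* and *Tcf21* reached it on control array C only, at 154.9 and 208.5. On the other arrays they were at 32 to 51.4 and 53.9 to 68.8. Their means in control podocytes were 1037 and 1363. The angiotensin receptor *Agtr1a* was at 2034, 1700.2 and 1727 against 2231, 2241 and 2093, and the transcription factor *Gata3* at 1107, 894 and 1074 against 1276, 1579 and 1419. *Cd2ap* itself had signals of 819, 870.4 and 797 on the mutant and 922, 1037 and 1123 on the control arrays. Every mutant array was below every control array, but the difference did not pass the test (log2 fold change -0.31, standard error 0.10, adjusted p = 0.151, limma), so that the direction of each change rests on the labels. The study also reported higher *Aldh1a2* by RNA-seq and higher thrombospondin by immunostaining in mutant mesangial cells. Which exons of *Cd2ap* the probes of this cluster cover relative to the disrupted part was not tested.

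Control array C, mutant array B and the sex of the mice call for notice before the results. Control array C stood apart from the other 5 in markers of other cell types. The summed signal of 19 podocyte markers was 6472 on it, against 1909 and 2128 on control arrays A and B and 1836 to 1866 on the mutant arrays. Endothelial markers summed to 12050.0 on control array C against 4053 to 5622 elsewhere, and erythroid markers to 7337 against 278 to 669. Of 16 leukocyte markers 6 reached the minimum, and their sum over all 16 was 1029 to 2627 on the mutant arrays and 982, 890.4 and 1952 on the controls. Mutant array B was the highest, with *Tyrobp* at 1261 against 168 and 159 on the other mutant arrays and 130.2, 69 and 523 on the controls. The sexes were not balanced. *Xist*, the RNA of the inactive X chromosome, was at 755, 711 and 559.7 on the mutant arrays and 730.4 on control array A, but at 35 and 32.4 on control arrays B and C, where the Y-linked *Ddx3y* was at 470.1 and 459 against 29.8 to 31.2 on the other arrays. The mutant arrays and control array A therefore share 1 sex, and values against control array A alone, which has no replicate, are given beside the largest changes and the list medians that they bear on. The part of these differences in the results was not tested except where a value is given without an array or against control array A. With bulk RNA, fewer cells of a type in the sort and less RNA per cell cannot be told apart.

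**Figure D1:**
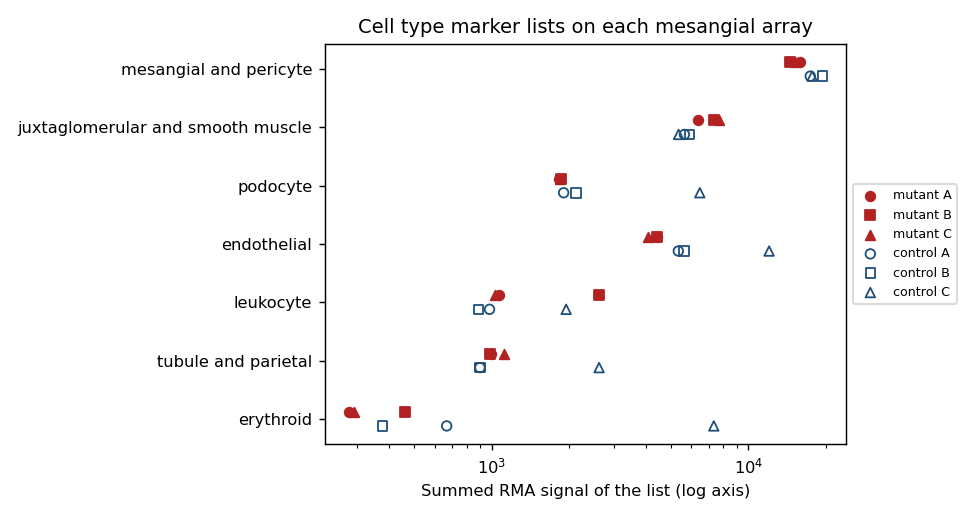
Summed RMA signal (horizontal log axis) of 7 marker lists on each of the 6 mesangial arrays. Filled red symbols are mutant and open blue symbols control arrays, with circles for A, squares for B and triangles for C. Control array C lies to the right in the podocyte, endothelial, tubule and erythroid rows, at 6472 for podocyte markers against 1836 to 2128 on the others.

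With limma and Benjamini-Hochberg adjustment over the 11457 clusters, 143 were higher (1.25% of those tested) and 192 lower (1.68%) in mutant mesangial cells at an adjusted p under 0.05. Together these 335 were 2.92% of the clusters tested. In all 335 the mutant arrays lay beyond all control arrays, which was so for 28.6% of the tested clusters. Where a lack of overlap is stated below for a called gene, it therefore adds nothing to the call. Of the calls, 101 of the higher and 151 of the lower exceeded a 1.5-fold change, and 48 and 52 exceeded 2-fold. A looser screen, for changes over 1.5-fold with an unadjusted p under 0.05, held 238 higher (2.08%) and 357 lower clusters (3.12%). At an unadjusted p under 0.05 alone, 8.82% of the tested clusters were higher and 12.9% lower, 21.7% together. The counts given for each gene list are to be read against these shares over all clusters. Of the 143 called higher, 30 had a signal below 100 on every control array, and of the 192 called lower, 38 had one below 100 on every mutant array, so these entered the test through 1 genotype only. Because the genotypes did not overlap in any of the 335, their direction against control array A alone, or with any 1 array left out, was fixed. The difference from control array A exceeded 1.5-fold for 97 higher and 137 lower clusters. Without control array C, 195 of the 335 were called again, and 36 passed the adjusted threshold in each of the 6 fits with 1 array less. With sex as a covariate, 1 cluster was called, that of *Aldh1a2*, and in that fit the genotype effect equals the difference from control array A. Of the 82 distinct members of the gene lists described below that were called, 15 were called in all 6 fits with 1 array left out. These were *Aldh1a2*, *Tslp*, *Ptgs2*, *Errfi1*, *Col12a1* and *Fbln5* among the increases and *Steap4*, *Glb1l2*, *Postn*, *Pdgfc*, *Pdgfd*, *Ano1*, *Itga4*, *Efnb2* and *Cd34* among the decreases. The other 67 missed the threshold in at least 1 of these fits, with a highest adjusted p between 0.0504 and 0.162. Called in none of the 6 fits were the increases *Cldn1*, *Skil*, *Stat3*, *Npr2*, *Cdkn2c*, *Creb3l1*, *Rpl13a* and *Rps23*. The same held for the decreases *Pdgfrb*, *Efnb1*, *Plxnd1* and *Fdft1*, and for *Slc25a35* and *Slc7a8*.

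**Figure D2:**
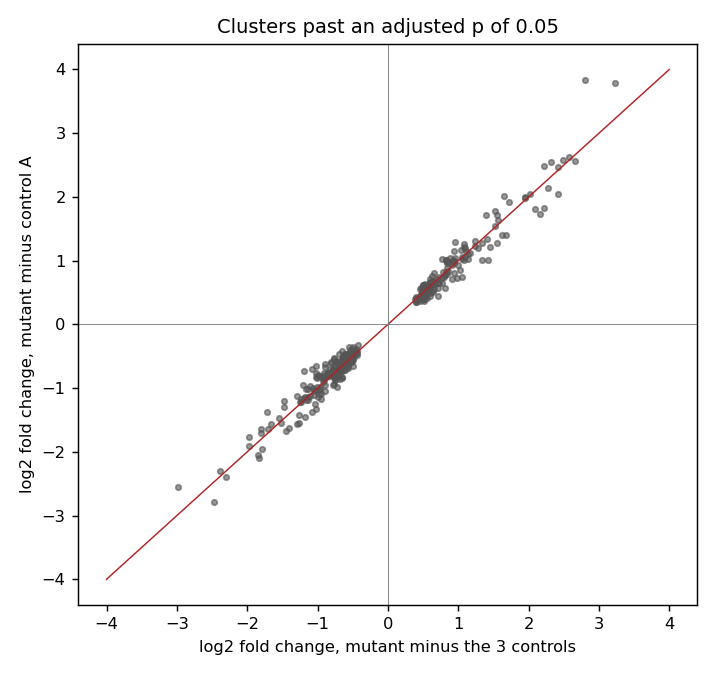
log2 fold change of the 335 transcript clusters past an adjusted p of 0.05. The horizontal axis gives mutant minus the 3 control arrays and the vertical axis mutant minus control array A, which is of the same sex as the mutants. Each point is 1 cluster and the diagonal marks equal values. On the vertical axis 97 higher and 137 lower clusters exceed a 1.5-fold change, and the equal sign on both axes follows from the lack of overlap between genotypes.

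The 10 largest increases, in order, were those of *Aldh1a2*, *Frzb*, *Tslp*, *Ptgs2*, *Fn1*, *Thbs1*, *Fam19a1*, *Errfi1*, *Col14a1* and *Ociad2*. *Aldh1a2*, which makes retinoic acid from retinaldehyde, had signals of 1324, 1128 and 1486 on mutant arrays A, B and C and 94.8, 192 and 149 on control arrays A, B and C. All mutant arrays were far above the controls, and 1 control was below the minimum of 100. The change was 9.37-fold (log2 fold change 3.23, standard error 0.25, adjusted p = 0.00388, limma), and 3.78 on the log2 scale against control array A. *Ptgs2*, the inducible cyclooxygenase that makes prostaglandin precursors, was at 337, 526 and 247 in mutants and 57, 62.7 and 57.4 in controls. The mutant values were uneven, with array B highest, while the controls were close together and under the minimum. The change was 5.98-fold (log2 fold change 2.58, standard error 0.26, adjusted p = 0.00843). *Frzb*, a secreted Wnt antagonist, was at 606, 636 and 633 in mutants and 43.9, 181 and 90.1 in controls. Here the mutants were alike and the spread lay among the controls, of which array A was lowest. *Frzb* changed 6.98-fold (log2 fold change 2.80, standard error 0.46, adjusted p = 0.0334).

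*Tslp*, an epithelial cytokine of type 2 immunity, was at 165, 169 and 271 in mutant and 33.3, 29.9 and 30.1 in control arrays, with all controls well under the minimum of 100, and was 6.32-fold higher (log2 fold change 2.66, standard error 0.20, adjusted p = 0.00312). *Thbs1*, encoding thrombospondin-1, a matrix protein known to activate latent TGF-beta, was at 706, 1265 and 1318 against 256, 139.6 and 217. Mutant array A was the lowest of the mutants and still well above each control. *Thbs1* was 5.34-fold higher (log2 fold change 2.42, standard error 0.31, adjusted p = 0.0169), and 2.05 on the log2 scale against control array A. *Fn1*, encoding fibronectin, was at 231, 541 and 574 against 69.6, 64.8 and 90.2, again with mutant array A lowest, and was 5.61-fold higher (log2 fold change 2.49, standard error 0.35, adjusted p = 0.0235). *Errfi1*, a feedback inhibitor of the EGF receptor, was at 1216, 1032 and 881 against 176, 209 and 243, with even values within each genotype (4.98-fold, log2 fold change 2.32, standard error 0.16, adjusted p = 0.00299). The collagen gene *Col14a1* was at 507, 351 and 563 against 82.6, 85.9 and 139 (4.67-fold, log2 fold change 2.22, standard error 0.25, adjusted p = 0.0134). The remaining 2 of the 10 largest increases were *Fam19a1*, a secreted chemokine-like protein, at 1111, 575 and 1012 against 157, 169 and 162, and *Ociad2* at 511, 629 and 649.8 against 167, 157 and 78.6. They rose by 2.41 (adjusted p = 0.00843) and 2.22 (adjusted p = 0.0179) on the log2 scale. In *Ociad2* control array C was the lowest control, and without it the change was 1.87. Against control array A the log2 differences were 3.83 for *Frzb*, 2.56 for *Tslp*, 2.63 for *Ptgs2*, 2.58 for *Fn1*, 2.46 for *Fam19a1*, 2.55 for *Errfi1*, 2.49 for *Col14a1* and 1.83 for *Ociad2*. In *Tslp*, *Ptgs2* and *Fn1* every control array was under 100 and may show background only, so that their fold changes may understate the change and their ranks are uncertain.

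Among the 10 largest decreases were a metalloreductase, a matricellular protein and a scavenger receptor. *Glb1l2*, a beta-galactosidase-like gene, had signals of 83.8, 94 and 136 on mutant and 599, 915 and 968 on control arrays. Mutant array C was the highest of the mutants and far below the lowest control. The change was 7.91-fold down (log2 fold change -2.98, standard error 0.24, adjusted p = 0.00465, limma). *Steap4*, a metalloreductase of iron and copper metabolism, was at 81.1, 63.1 and 78.4 in mutants, all below the minimum, and 364, 438 and 359.5 in controls, 5.23-fold lower (log2 fold change -2.39, standard error 0.13, adjusted p = 0.00244). *Postn*, encoding periostin, a matricellular protein, was at 44.3, 34.6 and 42 against 136, 153 and 191 (3.94-fold lower, log2 fold change -1.98, standard error 0.16, adjusted p = 0.00388). *Mrc1*, the mannose receptor that is better known from macrophages and sinusoidal endothelium, was at 465, 355 and 363 against 1273, 1519 and 1335 (3.51-fold lower, log2 fold change -1.81, standard error 0.13, adjusted p = 0.00312), with no overlap and little spread among the controls. Of the 16 leukocyte markers 6 reached 100 on some array (*Tyrobp*, *Ptprc*, *Lyz2*, *Cx3cr1*, *Fcer1g* and *Cd68*), highest on mutant array B or control array C, while *Csf1r* and *Emr1* were below 100 on all 6. The part of leukocyte RNA in *Mrc1* was not tested.

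*Serpinb1a*, an inhibitor of neutrophil proteases, was at 88.5, 76.5 and 87.4 against 317, 374.4 and 298 (log2 fold change -1.97, standard error 0.12, adjusted p = 0.00244). *Ccdc80*, a secreted matrix-associated protein, was at 361, 409.5 and 620.1 against 1865, 1533 and 1491 (log2 fold change -1.85, standard error 0.21, adjusted p = 0.0134). In *Ccdc80* mutant array C was the highest mutant, without reaching the controls. *Tmem182* was at 224, 196 and 141 against 965, 1043 and 732, and *Nkain2*, which interacts with the sodium pump, at 39.7, 39.3 and 41.7 against 171, 105 and 165. Their log2 fold changes were -2.30 (adjusted p = 0.00538) and -1.84 (adjusted p = 0.0102). The predicted gene *Gm10808* was at 64.4, 70.7 and 95.3 against 523, 432 and 325, and *Zmat4*, a zinc finger gene, at 81, 62.9 and 50.7 against 199.6, 315 and 177, with changes of -2.47 (adjusted p = 0.00520) and -1.81 (adjusted p = 0.0235). The mutants were below all controls in each of the 10, as the rule by which they were picked required. Against control array A the log2 differences were -2.55 for *Glb1l2*, -2.79 for *Gm10808*, -2.30 for *Steap4*, -2.40 for *Tmem182* and -1.76 for *Postn*. They were -1.92 for *Serpinb1a*, -2.05 for *Ccdc80*, -2.09 for *Nkain2*, -1.70 for *Mrc1* and -1.65 for *Zmat4*. In *Gm10808*, *Steap4*, *Postn*, *Serpinb1a*, *Nkain2* and *Zmat4* every mutant array was under 100, with the same limit on the fold change.

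Of these 20 genes, 12 passed the adjusted threshold with any 1 of the 6 arrays left out. The other 8 lost the call in some of these fits. *Nkain2* lost it without mutant B, *Ccdc80* without mutant B or control B, *Col14a1* without mutant A or control B, and *Thbs1* without mutant B, mutant C or control B. *Frzb* lost it without control C or any mutant array, *Ociad2* without control B or any mutant array, *Fn1* without mutant B, mutant C, control A or control B, and *Zmat4* without any array but control C. The highest adjusted p in these fits was 0.113, for *Frzb*.

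**Figure D3:**
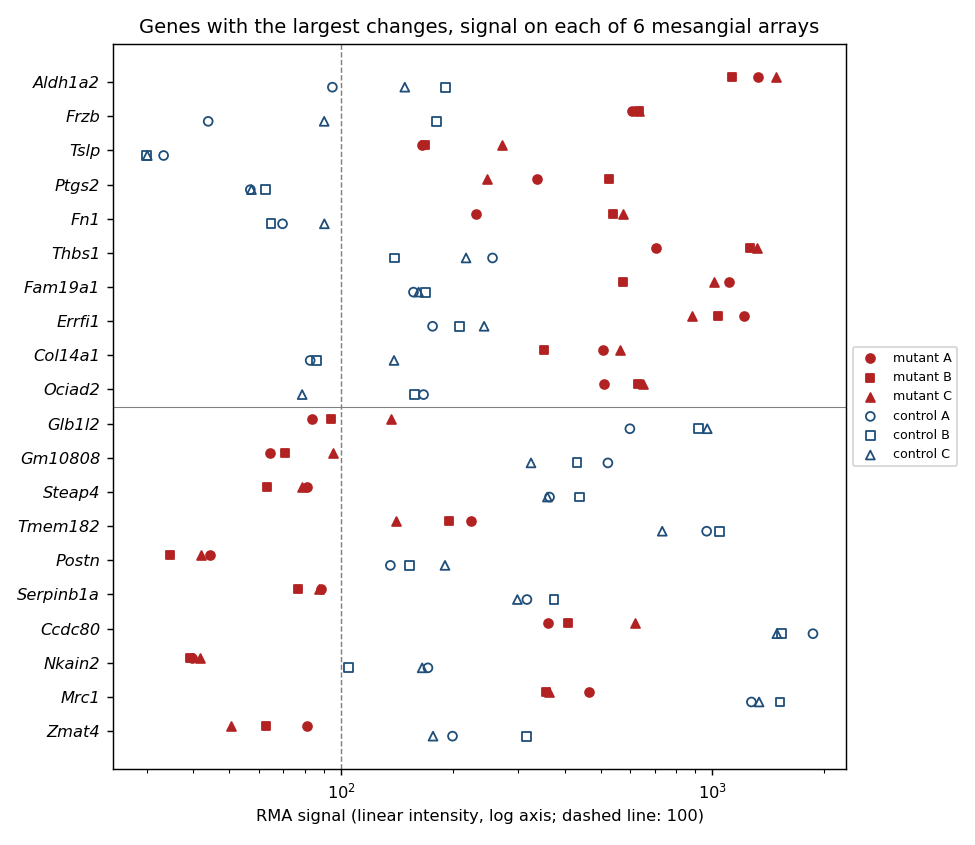
RMA signal (horizontal log axis) of the 10 largest increases, above the grey line, and the 10 largest decreases, below it, on each of the 6 mesangial arrays. Red filled symbols are mutant and blue open symbols control arrays, with circles for A, squares for B and triangles for C, and the dashed line marks a signal of 100. The mutant and control arrays do not overlap in any of the 20 genes, as the rule by which they were picked required. *Aldh1a2* lies at 1128 to 1486 in mutants against 94.8 to 192 in controls.

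Promoters of genes that moved are shown for *Aldh1a2*, the largest increase, *Errfi1*, an increase with even values, *Steap4*, a large decrease, and *Pdgfc*, a growth factor gene that fell (194, 175 and 154 against 670.2, 636 and 513). Each is the 250 bases before the start of transcription in RefSeq (build GRCm38.p6), 5′ to 3′ on the strand of the gene, and all 4 genes lie on the plus strand, at chr9:71215539-71215788, chr4:150853546-150853795, chr5:7960222-7960471 and chr3:81036166-81036415. Capitals mark matches, on either strand, to the TATA box (TATAAA), the AP-1 site (TGANTCA), the cAMP response element (TGACGTCA), the E-box (CACGTG), the TEAD core (CATTCC), the CArG box bound by serum response factor and the NF-kB consensus. *Errfi1* has 2 promoters in the table, of which 1 is shown, and no matches overlap in the 4 sequences.
Aldh1a2: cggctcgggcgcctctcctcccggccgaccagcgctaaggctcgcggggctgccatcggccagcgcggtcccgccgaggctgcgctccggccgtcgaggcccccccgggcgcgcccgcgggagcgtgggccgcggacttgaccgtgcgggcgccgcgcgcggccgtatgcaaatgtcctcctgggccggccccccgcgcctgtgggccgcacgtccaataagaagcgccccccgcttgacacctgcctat
Errfi1: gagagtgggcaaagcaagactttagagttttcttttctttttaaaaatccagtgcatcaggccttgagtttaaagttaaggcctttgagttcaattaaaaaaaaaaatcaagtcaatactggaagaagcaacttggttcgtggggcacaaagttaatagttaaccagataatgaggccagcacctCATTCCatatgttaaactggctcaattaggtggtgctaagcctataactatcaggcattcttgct
Steap4: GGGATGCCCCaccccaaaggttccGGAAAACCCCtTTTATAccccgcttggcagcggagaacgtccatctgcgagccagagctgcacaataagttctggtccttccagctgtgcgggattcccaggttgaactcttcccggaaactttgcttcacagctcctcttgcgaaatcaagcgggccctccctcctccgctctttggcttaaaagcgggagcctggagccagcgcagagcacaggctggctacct
Pdgfc: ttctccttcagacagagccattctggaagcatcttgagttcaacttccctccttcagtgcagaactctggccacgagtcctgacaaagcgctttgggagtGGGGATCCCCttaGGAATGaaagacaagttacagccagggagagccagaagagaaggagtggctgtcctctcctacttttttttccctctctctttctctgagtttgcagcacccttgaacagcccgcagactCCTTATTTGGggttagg

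In *Aldh1a2* none of the 7 motifs occurred in this window. The capitals in *Errfi1* are CATTCC at 65 to 60 bases upstream. Those in *Steap4* are 2 NF-kB matches, at 250 to 241 and 226 to 217 bases upstream, and TATAAA on the opposite strand at 215 to 210. In *Pdgfc* they are an NF-kB match at 150 to 141, CATTCC on the opposite strand at 137 to 132 and a CArG box at 17 to 8. A promoter was found for 74 of the 112 single-symbol genes called higher and for 138 of the 178 called lower. CATTCC was present in 18.9% of the former and 13.8% of the latter, beside 10.4% of the promoters of tested genes and 12.6% of all 27025 promoters. TATAAA was present in 9.46% and 7.97%, beside 6.59% and 13.0%, and TGANTCA in 4.05% and 3.62%, beside 3.71% and 6.87%. CACGTG was present in 6.76% and 5.07%, beside 8.63% and 6.05%, and TGACGTCA in 1.35% and 2.17%, beside 3.10% and 1.62%. NF-kB matches were present in 1.35% and 5.07%, beside 4.27% and 3.75%, and CArG boxes in 0 of 74 promoters and 1.45%, beside 1.10% and 1.40%. A match is a run of letters in the window and not a shown binding site.

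Among collagens the fibril-associated *Col12a1* and *Col14a1* and the network-forming *Col8a1* rose in mutants. Of 19 collagen genes, 10 were tested and 3 rose, beside 1.25% of all clusters tested, with a median log2 fold change of 0.25 beside -0.02 over all clusters tested. *Col12a1*, which decorates collagen fibrils, was at 1986, 2069.7 and 2310.1 against 533, 623 and 494, an increase of 3.87-fold (log2 fold change 1.95, standard error 0.12, adjusted p = 0.00244, limma). The genotypes were far apart, and the change against control array A was 1.99. *Col8a1* was at 824, 924 and 1087 against 539, 415 and 523 (log2 fold change 0.94, standard error 0.15, adjusted p = 0.0292). The fibrillar *Col1a1*, at 131, 114 and 120.3 against 115, 109.9 and 107, lay near the minimum in both genotypes and was not called, at 0.14 (adjusted p = 0.406). *Col6a3* was at 372, 457 and 452 against 284, 315 and 288, without overlap, and missed the threshold (log2 fold change 0.53, adjusted p = 0.0595).

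Basement membrane genes were not called. Of 14 tested, 0 passed the adjusted threshold or the looser screen in limma, while 3 had an unadjusted p under 0.05 and a higher mean log2 signal, beside 8.82% of all clusters, with a median of 0.17. *Col4a1* was at 359, 403 and 504 against 372, 441 and 401, with overlap, and *Lamc1*, encoding the laminin gamma1 chain, at 522, 518 and 609.5 against 375.4, 431 and 462 (log2 fold change 0.38, adjusted p = 0.132). Without control array C the median of the list was 0.16.

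Among 26 tested matrix glycoproteins 3 rose and 1 fell, beside 1.25% and 1.68% of all clusters tested, with a median of 0.04. The increases were *Fn1*, *Thbs1* and *Fbln5*, encoding the elastic fibre protein fibulin-5, at 293, 390.4 and 373.8 against 144, 139 and 131 (2.53-fold, log2 fold change 1.34, standard error 0.13, adjusted p = 0.00642), and the decrease was *Postn*. *Mgp*, an inhibitor of calcification, was at 2424, 2068 and 2449.5 against 1431, 1539 and 1014, and *Spp1*, osteopontin, at 109, 198 and 119 against 57.8, 53.8 and 93.2. Both were without overlap but not called, at 0.82 (adjusted p = 0.0597) and 1.05 (adjusted p = 0.108). Of 13 proteoglycan and heparan sulfate genes *Sulf1* rose, beside 1.25% of all clusters tested. This endosulfatase trims heparan sulfate and was at 231, 305 and 387 against 87.8, 90.5 and 145, with mutant A lowest and control C highest (log2 fold change 1.52, standard error 0.25, adjusted p = 0.0361). *Ogn*, encoding osteoglycin, was at 211, 242 and 462 against 134, 122 and 89 and passed only the looser screen (log2 fold change 1.34, adjusted p = 0.0728).

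Of 30 genes of matrix turnover and crosslinking 1 rose and 1 fell, beside 1.25% and 1.68% of all clusters tested. *Plau*, the urokinase plasminogen activator, was at 637, 629 and 699 against 331, 470.3 and 312 (log2 fold change 0.84, adjusted p = 0.0497), and *Mmp16*, a membrane-type metalloproteinase, at 82.7, 84.7 and 119 against 212, 224 and 227 (log2 fold change -1.23, adjusted p = 0.0147). The looser screen held 6 members as higher, beside 2.08% of all clusters, among them the lysyl oxidase *Loxl2* at 234, 351 and 426 against 127, 132 and 193 (log2 fold change 1.15, adjusted p = 0.0689). The metalloproteinase *Mmp3*, at 60.3, 115 and 146 against 49.5, 45.9 and 44.6 (log2 fold change 1.11, adjusted p = 0.106), had 1 mutant below the minimum.

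**Figure D4:**
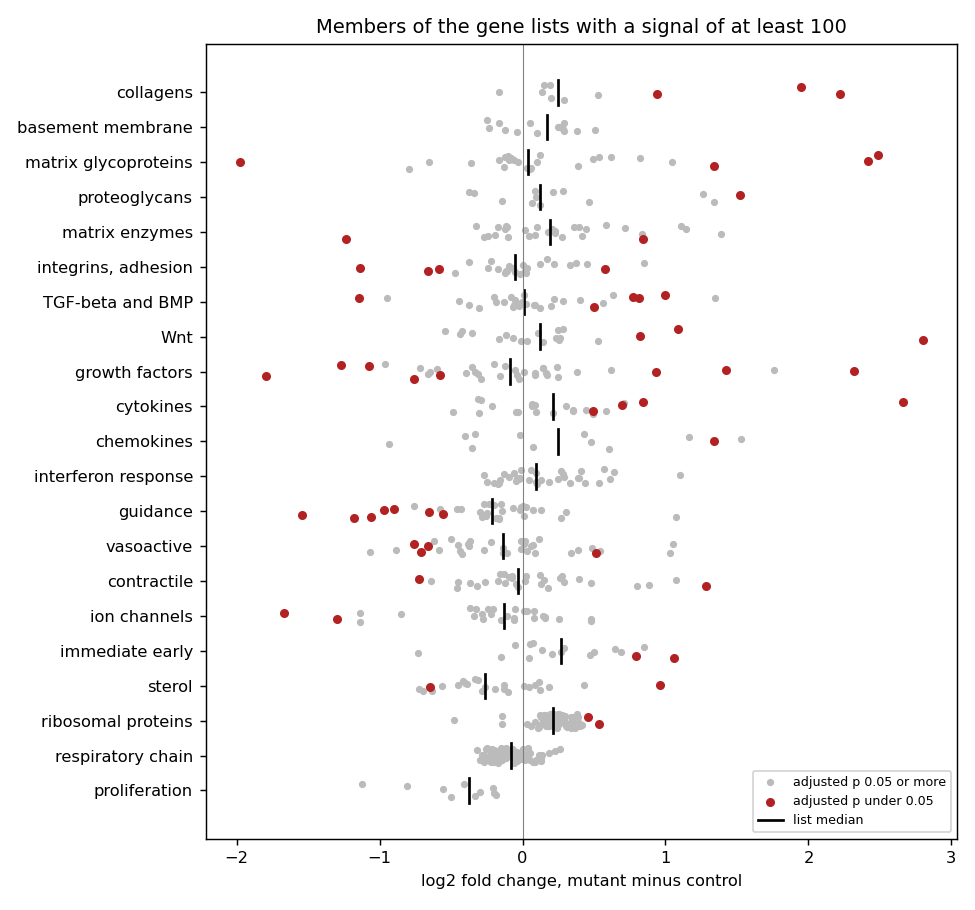
log2 fold change, mutant minus control (horizontal axis), of each member of 21 gene lists that reached a signal of 100 on 1 or more mesangial arrays. Each point is 1 gene, red where the adjusted p was under 0.05 and grey otherwise, and the black bar is the median of the list. Guidance genes have red points below 0 only, collagens above 0 only, and most ribosomal proteins lie in a narrow band with a median of 0.22.

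The ligands *Bmp2*, *Bmp4* and *Tgfb2* of the TGF-beta family rose in mutants, and *Gdf10* fell. Of 32 tested members of the pathway 4 rose and 1 fell, beside 1.25% and 1.68% of all clusters tested, with a median of 0.01. *Bmp2* was at 304, 319.5 and 398 against 178, 200.0 and 136 (log2 fold change 1.00, standard error 0.17, adjusted p = 0.0381, limma). *Bmp4* was at 558, 562 and 669 against 399, 294 and 329.5 (log2 fold change 0.81, standard error 0.14, adjusted p = 0.0369), and *Tgfb2* at 172, 206 and 169 against 89, 112 and 120.0 (log2 fold change 0.77, standard error 0.14, adjusted p = 0.0426). The genotypes did not overlap in any of them. Against control array A alone the changes were 0.93, 0.58 and 1.03. *Tgfb3* was at 236, 293 and 315 against 156, 119 and 71.8 and was not called (log2 fold change 1.34, adjusted p = 0.0595), with control array C the lowest, and its change without that array was 1.04. *Skil*, a repressor of SMAD signalling that is itself a target of TGF-beta, was at 190.0, 190.2 and 183 against 122, 143 and 134 (log2 fold change 0.50, adjusted p = 0.0411). The ligand *Gdf10* was at 373.5, 412 and 294 against 789, 823 and 747 (log2 fold change -1.14, adjusted p = 0.0141).

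Of 20 Wnt pathway genes 3 rose, beside 1.25% of all clusters tested, with a median of 0.12. Beside *Frzb* these were the receptors *Fzd7*, at 433, 479 and 393 against 216, 234 and 168 (log2 fold change 1.09, standard error 0.15, adjusted p = 0.0203), and *Ror1*, at 430.4, 345 and 393 against 192, 244 and 227 (log2 fold change 0.82, standard error 0.13, adjusted p = 0.0293). The values of both receptors were separated between genotypes and even within them. Of 11 retinoid genes only *Aldh1a2* was called in limma, beside 2.92% of all clusters tested (median -0.06). Of 13 prostaglandin and leukotriene genes only *Ptgs2* was called, beside the same share. *Alox5ap*, which presents arachidonic acid to 5-lipoxygenase, was at 267, 445 and 557 against 88.9, 163 and 161 and passed the looser screen (log2 fold change 1.61, adjusted p = 0.0597).

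The PDGF ligands *Pdgfc* and *Pdgfd* and the receptor *Pdgfrb* fell in mutants. Of 36 tested growth factor genes 3 rose and 5 fell, beside 1.25% and 1.68% of all clusters tested, with a median of -0.09. *Pdgfc* had the values given with its promoter and was 3.47-fold lower (log2 fold change -1.80, standard error 0.14, adjusted p = 0.00349, limma). *Pdgfd*, a ligand of PDGFR-beta, was at 183, 167 and 172 against 466, 350.0 and 451 (2.41-fold lower, log2 fold change -1.27, standard error 0.13, adjusted p = 0.00843). *Pdgfrb*, the receptor on which mesangial recruitment depends, was at 1188, 988 and 1038 against 1481, 1706 and 1599 (log2 fold change -0.58, standard error 0.10, adjusted p = 0.0420). All mutant arrays were below all controls in these 3 genes, and against control array A the changes were -1.95, -1.42 and -0.47. The call of *Pdgfrb* was lost when any 1 of the 6 arrays was left out, with an adjusted p of up to 0.146.

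*Fgfr2*, a receptor for fibroblast growth factors, was at 121, 97.3 and 119 against 291, 257 and 176 (log2 fold change -1.08, adjusted p = 0.0435). *Pgf*, placental growth factor, was at 61.7, 56.5 and 56.4 against 107, 80.4 and 111 (log2 fold change -0.76, adjusted p = 0.0419), with every mutant array below the minimum. *Figf*, also known as vascular endothelial growth factor D, rose, at 2049.5, 2116 and 2223 against 1058, 1324 and 993 (log2 fold change 0.93, adjusted p = 0.0191). The lowest mutant array was well above the highest control. *Igfbp3*, a carrier of insulin-like growth factors, was at 146, 233 and 859.9 against 65.2, 92 and 126. Mutant array C was far above the other mutants, and the gene passed only the looser screen (log2 fold change 1.76, adjusted p = 0.176).

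The cytokine *Tslp*, the receptors *Osmr* and *Il1r1*, the transducer *Stat3* and the chemokine *Ccl2* rose. Of 23 tested cytokine and receptor genes 4 rose and 0 fell, beside 1.25% and 1.68% of all clusters tested, with a median of 0.21. Beside *Tslp* these were *Osmr*, the oncostatin M receptor, at 1378, 1284 and 1206 against 745, 772 and 645 (log2 fold change 0.84, standard error 0.10, adjusted p = 0.0147, limma), and 2 others. The interleukin 1 receptor *Il1r1* was at 540.4, 575 and 571 against 344, 382 and 317 (log2 fold change 0.70, standard error 0.10, adjusted p = 0.0226), and the signal transducer *Stat3* at 355, 392 and 339 against 249.7, 254 and 268 (log2 fold change 0.49, standard error 0.09, adjusted p = 0.0418). The changes in these 3 were under 2-fold but larger than the spread within each genotype. The call of *Stat3* was lost when any 1 array was left out (adjusted p up to 0.1455). *Il1r1* stayed past the threshold only without control array C. *Osmr* lost its call without mutant array A, mutant array B or control array B. Of 12 chemokine genes *Ccl2*, which attracts monocytes, rose, beside 1.25% of all clusters tested. It was at 174, 163 and 147 against 79.6, 56.2 and 57.4 (log2 fold change 1.34, standard error 0.15, adjusted p = 0.0134). Every control array of *Ccl2* was below the minimum, so it entered the test through mutant arrays only. With any 1 array left out its log2 fold change lay between 1.25 and 1.503, and the call was lost without mutant array A, mutant array B or control array B (adjusted p up to 0.0621). *Cxcl10* was at 633, 314 and 807 against 278, 134 and 179 and passed only the looser screen (log2 fold change 1.53, adjusted p = 0.0949).

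Of 35 interferon response genes 0 passed an adjusted p under 0.05 in limma, beside 2.92% of all clusters tested, while 2 had an unadjusted p under 0.05 and passed the looser screen as higher, beside 2.08% for that screen over all clusters. Their summed signal was 11101 to 19519 on the mutant arrays and 15844, 9378 and 15380.0 on the controls. The genotypes overlapped, and the median was 0.09 against all controls and -0.06 against control array A, so its sign depended on which controls were used. Of 10 antigen presentation genes 0 were called in limma and 0 had an unadjusted p under 0.05, with all 10 mean log2 signals higher, beside 45.4% over all clusters (median 0.14). The genotypes overlapped in each of the 10. Against control array A *H2-D1* (-0.23) and *Nlrc5* (-0.04) were lower and the others higher. Of 15 complement genes 0 were called, while 1 was higher and 1 lower at an unadjusted p under 0.05, beside 8.82% and 12.9% of all clusters (median -0.02). The lower one, *Masp2*, was read from a cluster shared with *Tardbp*. Mutant array B, which had the highest leukocyte signal, was the highest mutant array for *Ptgs2*. Without it *Ptgs2* and *Tslp* were called. The part of the leukocyte signal in the values of these lists was not tested.

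The mesangial markers *Itga8*, *Pdgfrb*, *Art3* and *Gucy1a3* fell in mutants. Of the 19 tested mesangial and pericyte markers 0 rose and 4 fell, beside 1.25% and 1.68% of all clusters tested, with a median of -0.37. Without control array C the median was -0.03 and 5 were called lower, and against control array A it was -0.01. *Itga8*, the integrin that marks mesangial cells, was at 1975, 1886 and 2081 against 2892, 3126 and 2904 (log2 fold change -0.59, standard error 0.08, adjusted p = 0.0235, limma). *Art3*, of the ADP-ribosyltransferase family, was at 643, 445 and 646 against 1129.5, 1157 and 1140.3 (log2 fold change -1.004, standard error 0.15, adjusted p = 0.0290). The controls of *Art3* were nearly equal and mutant B was lowest. *Gucy1a3*, a subunit of the nitric oxide receptor guanylate cyclase, was at 508, 462 and 452 against 765, 847 and 716 (log2 fold change -0.71, standard error 0.10, adjusted p = 0.0226). *Itga8* and *Gucy1a3* stayed past the threshold only without control array C, and *Art3* only without mutant array B or control array C. Other markers were not called. *Serpine2*, a protease inhibitor, was at 2067, 2042 and 2292 against 1996, 2110.4 and 1908 (log2 fold change 0.09, adjusted p = 0.601), and *Ebf1*, a pericyte transcription factor, at 971, 902 and 833 against 798, 879 and 799 (log2 fold change 0.13, adjusted p = 0.478). *Meis1*, whose reporter was sorted, was at 321, 271 and 231 against 209.7, 224 and 189 and was not called (log2 fold change 0.39, adjusted p = 0.171). *Wt1*, a transcription factor best known from podocytes, was at 310.4, 262 and 259 against 363, 506 and 419 (log2 fold change -0.62, adjusted p = 0.0728). It was above the minimum on every array.

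Of 31 contractile genes 1 rose and 1 fell, beside 1.25% and 1.68% of all clusters tested, with a median of -0.03. *Csrp2*, an actin-associated LIM protein of smooth muscle, rose, at 359, 468 and 506 against 191, 179 and 172 (log2 fold change 1.29, standard error 0.14, adjusted p = 0.0116, limma). *Mrvi1*, a target of cGMP kinase in smooth muscle, fell, at 169, 180.2 and 194 against 313, 299 and 284 (log2 fold change -0.72, standard error 0.09, adjusted p = 0.0147). *Acta2*, smooth muscle actin, was at 811, 1689 and 1562 against 627, 680.4 and 539. The groups did not overlap, mutant A lay nearest to the controls, and the gene was not called (log2 fold change 1.07, adjusted p = 0.0949). *Des*, encoding desmin, was at 279.5, 314 and 337 against 502, 594 and 376.6 and was not called (log2 fold change -0.64, adjusted p = 0.105).

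Of 35 vasoactive signalling genes 1 rose and 3 fell (median -0.13), beside 1.25% and 1.68% of all clusters tested. Beside *Gucy1a3* the phosphodiesterase *Pde5a*, which breaks down cGMP, fell, at 334, 324 and 266 against 583, 527 and 456 (log2 fold change -0.76, adjusted p = 0.0391), and the sphingosine 1-phosphate receptor *S1pr3* fell, at 886, 731 and 888 against 1374, 1457 and 1144 (log2 fold change -0.66, adjusted p = 0.0497). *Npr2*, a natriuretic peptide receptor with guanylate cyclase activity, rose, at 208, 185 and 207 against 147, 145 and 129 (log2 fold change 0.51, adjusted p = 0.0457). No mutant array of these 3 genes overlapped a control array. Of 28 ion channel genes 0 rose and 2 fell (median -0.13), beside 1.25% and 1.68% of all clusters tested. *Ano1*, a calcium-activated chloride channel, was at 343, 396 and 319 against 1037, 1243 and 1076, 3.18-fold lower (log2 fold change -1.67, standard error 0.12, adjusted p = 0.00299, limma). The cation channel *Trpc4* was at 193, 162 and 132 against 474, 399 and 321 (log2 fold change -1.30, standard error 0.19, adjusted p = 0.0250). Both were separated between the genotypes. *Trpc6*, whose gain-of-function mutations are a known cause of glomerulosclerosis, was at 73.9, 147 and 108 against 261, 258 and 187, without overlap, and was not called (log2 fold change -1.14, adjusted p = 0.0723).

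Of 34 tested ephrin, semaphorin, plexin and slit-robo genes 0 rose and 7 fell, beside 1.25% and 1.68% of all clusters tested, with a median of -0.22. *Efnb2*, encoding the ephrin-B2 ligand, was at 878, 929 and 890.0 against 1803, 1788 and 2051, 2.09-fold lower (log2 fold change -1.06, standard error 0.09, adjusted p = 0.00492, limma). The receptor *Robo2* was at 107, 98.3 and 128 against 305, 273 and 399 (log2 fold change -1.54, standard error 0.17, adjusted p = 0.0116), and *Sema5a* at 428, 382 and 352 against 763, 701 and 808 (log2 fold change -0.97, standard error 0.11, adjusted p = 0.0116). The genotypes were well separated in each of these 3. The other 4 were the receptors *Ephb1* (log2 fold change -1.18, adjusted p = 0.0281), *Epha3* (log2 fold change -0.90, adjusted p = 0.0418) and *Plxnd1* (log2 fold change -0.56, adjusted p = 0.0335) and the ligand *Efnb1* (log2 fold change -0.66, adjusted p = 0.0430). *Plxnd1* and *Efnb1* lost the call when any 1 array was left out (adjusted p up to 0.1289 and 0.1497). *Ephb1* and *Epha3* stayed past the threshold only without control array C. The median of the list was -0.13 without control array C and -0.09 against control array A.

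Of 27 integrin and adhesion genes 1 rose and 3 fell (median -0.05), beside 1.25% and 1.68% of all clusters tested. Beside *Itga8* these were *Itga4*, at 747, 672 and 671 against 1588, 1622 and 1394 (log2 fold change -1.14, standard error 0.10, adjusted p = 0.00492, limma), and *Itga3*, at 143, 140.3 and 151 against 239.6, 236 and 212 (log2 fold change -0.66, standard error 0.09, adjusted p = 0.0179). Both are alpha chains of receptors for matrix proteins. The leukocyte ligand *Icam1* rose, at 102, 105 and 111 against 74.8, 67.7 and 71 (log2 fold change 0.57, standard error 0.08, adjusted p = 0.0246), with all controls below the minimum. Of 24 junction and cadherin genes 3 rose and 1 fell, beside 1.25% and 1.68% of all clusters tested. The protocadherin *Pcdh7* was at 118, 210.1 and 149.7 against 49.9, 49.8 and 57.2 (log2 fold change 1.57, adjusted p = 0.0179) and the tight junction gene *Cldn1*, also a marker of parietal epithelium, at 188, 193 and 314 against 109, 117 and 92.7 (log2 fold change 1.09, adjusted p = 0.0497). The protocadherin *Pcdh18* fell, at 479.6, 426 and 403 against 667, 779 and 675 (log2 fold change -0.70, adjusted p = 0.0289). *Gjb2*, read from a cluster shared with another symbol, was at 99.7, 124 and 150.0 against 67.9, 56.3 and 57.4 (log2 fold change 1.03, adjusted p = 0.0303). Every control array of *Pcdh7* and *Gjb2* was below the minimum.

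Of 49 tested mesenchymal and renal transcription factors 2 fell, beside 1.68% of all clusters tested, *Tbx3* at 221, 209.5 and 184 against 342, 344 and 342 (log2 fold change -0.75, standard error 0.09, adjusted p = 0.0155, limma) and *Nr2f1* at 179, 191 and 229.8 against 302, 318 and 297 (log2 fold change -0.62, adjusted p = 0.0418). The controls of *Tbx3* were nearly equal. Of 10 Kruppel-like factors *Klf12* fell (log2 fold change -0.89, adjusted p = 0.0134), beside 1.68% of all clusters tested. Of 25 Hox genes 0 were called in limma, while 5 were higher and 1 lower at an unadjusted p under 0.05, beside 8.82% and 12.9% of all clusters. Of 17 tested immediate early genes 2 rose, beside 1.25% of all clusters tested, and 5 of the 17 entered the test through mutant arrays only. *Egr1* was at 194, 181 and 138 against 101, 98.5 and 93.1 (log2 fold change 0.80, adjusted p = 0.0396) and *Myc* at 97.5, 135 and 101 against 53.8, 55.9 and 48.6 (log2 fold change 1.06, adjusted p = 0.0204). The mutant arrays were above all control arrays in both, and every control array of *Myc* was below the minimum.

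Of 15 tested clock genes *Npas2*, an activator of the clock, fell, at 70.5, 62.3 and 62.5 against 102, 167 and 135 (log2 fold change -1.02, adjusted p = 0.0401), beside 1.68% of all clusters called lower. Every mutant array of *Npas2* was below the minimum. Of the list 5 passed the looser screen as higher, beside 2.08%. *Nr1d1*, a repressor of the clock read from a cluster shared with another symbol, was at 826, 804 and 515 against 590.1, 232 and 268, with overlap (log2 fold change 1.07, adjusted p = 0.164). Control array A lay nearer to the mutants, and the log2 difference against it alone was 0.25. Another shared *Nr1d1* cluster gave -0.19 (adjusted p = 0.235), of opposite sign. The hour at which the mice were killed is not given in the sources used here. Of 15 glucocorticoid-responsive genes 2 rose (median 0.17), beside 1.25% of all clusters tested, *Errfi1* and the metallothionein *Mt1*, the latter at 348, 333 and 448 against 168, 217 and 199.8 (log2 fold change 0.94, adjusted p = 0.0305). *Fkbp5*, a widely used reporter of glucocorticoid action, was at 179, 182 and 300.3 against 119.9, 131 and 101 and was not called (log2 fold change 0.87, adjusted p = 0.0869).

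Most ribosomal protein genes had slightly higher mean log2 signals in mutants. Of 75 tested 72 were higher, beside 45.4% over all clusters, with a median of 0.22, and 2, *Rpl13a* and *Rps23*, were called in limma, beside 1.25% of all clusters, at 0.46 (adjusted p = 0.0386) and 0.53 (adjusted p = 0.0288). Between 71 and 72 were higher with array medians subtracted or arrays quantile normalized again, and the median against control array A was 0.22. These genes share near-identical processed copies, so that probes may read several of them. Of 79 respiratory chain genes 0 were called in limma, while 2 were higher and 6 lower at an unadjusted p under 0.05, beside 8.82% and 12.9% of all clusters (median -0.08). Of 25 sterol genes 1 rose and 1 fell (median -0.27), beside 1.25% and 1.68% of all clusters tested. *Abca1*, which exports cholesterol, rose, at 278, 208 and 214 against 94, 125 and 144 (log2 fold change 0.96, adjusted p = 0.0497). *Fdft1*, encoding squalene synthase, fell in the cluster it has alone (log2 fold change -0.65, adjusted p = 0.0376), while 2 clusters shared with other symbols gave -0.71 (adjusted p = 0.0781) and 0.19 (adjusted p = 0.545). Chaperone and ER stress genes had a median of -0.24 with 1 of 25 called, *Creb3l1*, which rose (log2 fold change 0.45, adjusted p = 0.0374), beside 1.25% of all clusters called higher.

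Of 27 proliferation genes 10 were tested and 0 were called in limma, while 6 were lower at an unadjusted p under 0.05, beside 12.9% of all clusters. Of the 10, 6 were under 100 on every mutant array and entered the test through control arrays only, so no direction is drawn for the list. *Top2a*, a marker of dividing cells, was at 53.9, 116 and 86.2 against 132, 141 and 299, with control array C highest, and passed the looser screen as lower (log2 fold change -1.12, adjusted p = 0.166). *Mki67* was at 48.1, 75.4 and 49.1 against 81.5, 72.2 and 162, with overlap (log2 fold change -0.81, adjusted p = 0.220). Of 23 apoptosis genes 0 were called in limma, while 1 was higher and 2 lower at an unadjusted p under 0.05, beside 8.82% and 12.9% of all clusters (median 0.04). Among 106 solute carriers 2 rose and 3 fell, beside 1.25% and 1.68% of all clusters tested. *Slc38a2*, an amino acid transporter, rose, at 1030.3, 1119.9 and 988 against 712, 637 and 643 (log2 fold change 0.66, adjusted p = 0.0228), and *Slc2a1*, the glucose transporter GLUT1, fell, at 133, 137 and 136 against 173, 208 and 217 (log2 fold change -0.55, adjusted p = 0.0472). Of 13 cell cycle regulators *Cdkn2c*, an inhibitor of cyclin D kinases, rose (log2 fold change 0.72, adjusted p = 0.0418), beside 1.25% of all clusters tested. Every control array of *Cdkn2c* was below the minimum of 100. Of 33 lysosomal genes *Glb1l2* was called, and of 17 iron and redox genes *Steap4* and the glutathione transferase *Gsta4* (log2 fold change -0.90, adjusted p = 0.0474). All were lower, beside 1.68% of all clusters tested. Of 22 S100, galectin and annexin genes 0 were called in limma, while 5 were higher at an unadjusted p under 0.05, beside 8.82% of all clusters, among them *Lgals1*, encoding galectin-1, at 1817, 2512 and 2779 against 1392, 818 and 940.3 (log2 fold change 1.19, adjusted p = 0.0538).

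Markers of other cell types were examined as a whole. Of 18 tested podocyte markers 0 were called in limma and 1 was lower at an unadjusted p under 0.05, beside 12.9% of all clusters, and their median of -0.56 became 0.00 without control array C. Of 18 endothelial markers 3 fell, beside 1.68% of all clusters tested, and the median went from -0.45 to 0.05 without that array. *Cd34*, a sialomucin of endothelial and other progenitor cells, was at 700.3, 755 and 825 against 1570.2, 1495 and 1632 (log2 fold change -1.05, standard error 0.09, adjusted p = 0.00538). *Ehd3*, an endocytic gene of glomerular endothelium, was at 301, 262 and 309.5 against 618, 517 and 581 (log2 fold change -0.98, standard error 0.11, adjusted p = 0.0121), and *Tek*, the angiopoietin receptor TIE2, at 398, 323 and 324 against 575, 784 and 1091 (log2 fold change -1.19, standard error 0.23, adjusted p = 0.0497). The genotypes did not overlap in the 3 genes, and without control array C their differences were -1.01, -0.96 and -0.95. The defining endothelial genes *Cdh5* and *Pecam1* did not share this order of the arrays. *Cdh5* was at 209, 262 and 96.2 against 99, 121 and 1112 and *Pecam1* at 172, 192 and 90.8 against 82.3, 107 and 807, so control arrays A and B lay within or below the range of the mutants and control array C far above it.

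The mesangial changes were set against those between mutant and control podocytes and endothelial cells, whose controls are marked differently from the mesangial ones. In a limma fit of the 18 arrays together, over 13523 clusters, the genotype effect in mesangial cells differed from that in podocytes in 97 clusters (0.717%) and from that in endothelial cells in 145 (1.07%). The 2 contrasts share the mesangial arrays. The genes named below were picked for their mesangial changes on the same arrays, which favours a difference from the other cell types. The sexes differed between the cell types: *Ddx3y* exceeded *Xist* on 0 of 3 mutant and 2 of 3 control arrays of mesangial cells, on 2 of 3 mutant and 0 of 3 control arrays of endothelial cells, and on 1 of 3 of each in podocytes. With sex as a covariate in this fit, an alternative added after seeing the data, 74 and 36 clusters were called. For *Aldh1a2* the log2 fold change was 3.23 in mesangial cells, -0.13 in podocytes and -0.24 in endothelial cells, and the mesangial effect exceeded the others by 3.36 (adjusted p = 0.000129) and 3.46 (adjusted p = 5.13e-05). *Ptgs2* had log2 fold changes of -0.01 in podocytes and -0.04 in endothelial cells, *Tslp* of 0.26 and 0.12, and *Thbs1* of -0.02 and 0.23. For these 3 the difference from the mesangial effect passed the threshold in both contrasts, and with sex as a covariate all but that of *Thbs1* from endothelial cells did (adjusted p = 0.233). *Ptgs2* and *Tslp* were not clearly detected there, with mean signals of 50 and 50.4 in mutant and control podocytes and 45.1 and 46.3 in endothelial cells for *Ptgs2*, and 47.1, 38.2, 30.5 and 28.2 for *Tslp*, so that their small fold changes are between signals near background. The same holds for *Aldh1a2* and *Thbs1* in endothelial cells, whose means there were under 100 in both genotypes. *Fn1* had 0.90 and *Ociad2* 1.36 in podocytes, and these were not shown to differ from the mesangial effects (adjusted p = 0.212 and 0.558).

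Among the decreases some differed from the podocyte effect and others were not shown to. *Mrc1* had a log2 fold change of -1.81 in mesangial cells and -2.08 in podocytes, a difference of 0.27 (adjusted p = 0.869), *Steap4* had -2.39 and -1.28 (difference -1.10, adjusted p = 0.528), and *Postn* -1.98 and -1.14 (difference -0.84, adjusted p = 0.677). None of these 3 differences passed the threshold, which does not show that the effects were equal. In podocyte controls *Steap4* was at 240.3 ± 259 and *Postn* at 122 ± 138 (SD, n = 3), the spread exceeding the mean. Of 20 mesangial markers 6 were lower in mutant podocytes by the adjusted threshold, beside 4.58% of all clusters, among them *Pdgfrb* at -1.09 (adjusted p = 0.00934), *Gucy1a3* at -1.35 (adjusted p = 0.00627) and *Itga8* at -1.55 (adjusted p = 0.0348). The summed signal of the 20 markers was 5168 to 8648 on the mutant and 8988 to 10429 on the control podocyte arrays. This sum holds *Foxd1*, at means of 1166 in mutant and 1037 in control podocytes, and *Tcf21*, at 1333 and 1363. Neither was called lower in mutant podocytes. The part of mesangial RNA in the podocyte values was not tested. For *Glb1l2*, at -2.98 and -1.17, the mesangial effect differed by -1.82 (adjusted p = 0.0198), and for *Serpinb1a*, at -1.97 and -0.59, by -1.38 (adjusted p = 0.000392). *Cd2ap* itself had log2 fold changes of -0.31, -0.23 and 0.18 in mesangial cells, podocytes and endothelial cells, and neither contrast passed (adjusted p = 0.910 and 0.144).

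**Figure D5:**
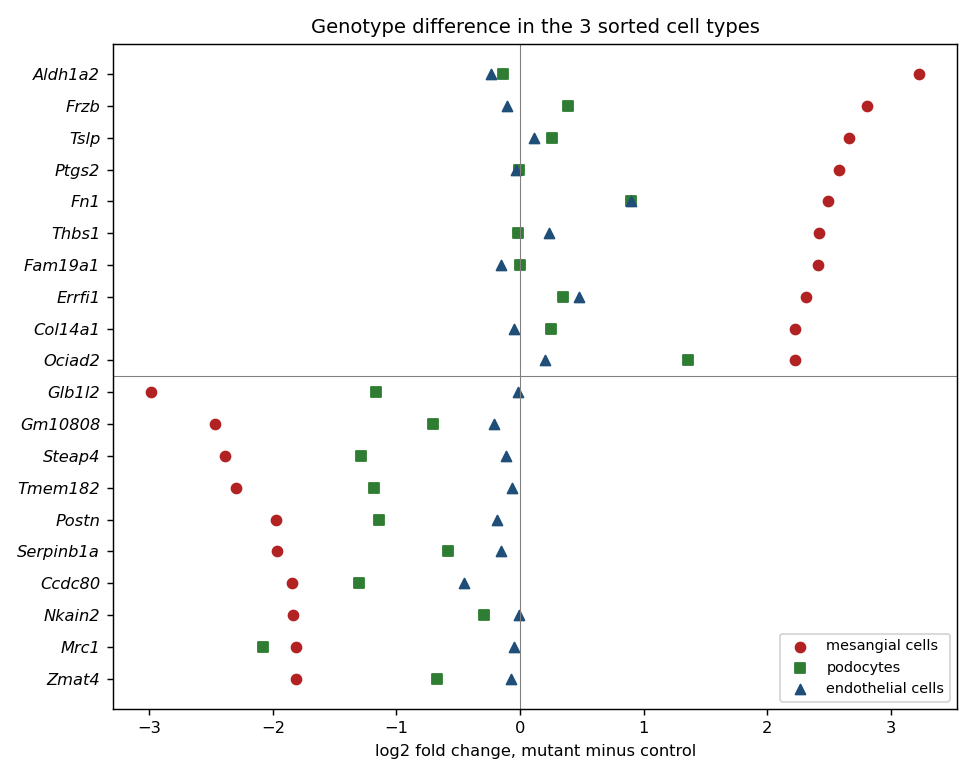
log2 fold change, mutant minus control (horizontal axis), of the 10 largest mesangial increases and the 10 largest decreases in mesangial cells (red circles), podocytes (green squares) and endothelial cells (blue triangles), 3 arrays per genotype each. *Aldh1a2* lies at 3.23 in mesangial cells and at -0.13 and -0.24 in the others, while *Mrc1* lies at -1.81 in mesangial cells and -2.08 in podocytes.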

How the data were processed

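The 6 arrays compared are of GFP+ cells from sieved and dissociated glomeruli, 3 of *Cd2ap* mutant and 3 of control mice. RNA was amplified with the Nugen Ovation Pico V2 system and measured on Affymetrix Mouse Gene ST arrays. The deposited table gives, for each transcript cluster and array, a signal intensity that the authors obtained by RMA (background correction, quantile normalization and summarization over probes) and exported on a linear scale from GeneSpring. Another 18 deposited columns hold log2 values of the same arrays, centred on the median of each cluster by the authors, and were not used here. RMA forces the arrays to 1 distribution, so that a shift shared by all genes cannot be seen, and low signals lie on a floor of background, which makes fold changes of weak genes too small.

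Clusters reaching a signal of 100 on 1 or more of the 6 arrays were taken, and log2 signals were compared with limma 3.58.1 (lmFit and eBayes, two-sided) in R 4.3.3, with Benjamini-Hochberg adjustment over the 11457 clusters. A call is an adjusted p under 0.05. Standard errors are those of the moderated fit. The difference of the genotype effect between cell types was taken from interaction contrasts over the 18 arrays, for clusters reaching a signal of 100 on 1 or more of them. The number of arrays, 3 per genotype, limits the precision. Columns were assigned to genotypes by their names, which give the group but no replicate number shared between groups. Sex was read from *Xist* and Y-linked genes and used only as a covariate, in the mesangial fit and, as an alternative added after seeing the data, in the 18-array fit. The fit of the 6 arrays was also run on simulated data with known changes and independent normal noise. That simulation held no outlying array and no sex imbalance, so it does not bear on their part in the calls.

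The genes named by rule were *Cd2ap*, the markers *Aldh1a2*, *Thbs1*, *Frzb*, *Tslp*, *Ptgs2* and *Steap4* and the 10 largest increases and decreases in size among clusters past the adjusted threshold, with 1 symbol and no overlap between genotypes. Others were taken from 52 gene lists by role. A gene with several clusters was read from the single-symbol cluster with the highest mean signal, or from a shared cluster where it had no other. The members and lists were chosen with earlier results of these data known. Alternatives were the signal minimum, trend and robust options of eBayes, a further scaling, array weights, sex as a covariate, the 18-array fit and leaving out each array. Promoter sequences came from RefSeq (GRCm38.p6), matched by symbol. No columns of the authors' own comparisons were used. Some members of the lists are not reported here.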

Additional observations from a re-analysis of the deposited data

Results flagged for a closer look

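Each of the following genes was listed because the effect of the *Cd2ap* genotype in mesangial cells differed from the effect in another cell type by a limma interaction contrast, adjusted over 13523 clusters. Values are the mesangial minus the other log2 fold change. The contrasts with podocytes and with endothelial cells share the mesangial arrays, each cell type was sorted with a reporter line of its own, and the control columns of the other cell types are marked differently from the mesangial ones. With sex as a covariate in the same fit 20 of the 24 contrasts listed passed. Those that did not were *Thbs1* against endothelial cells (1.70, adjusted p = 0.233), *Frzb* against podocytes (2.51, adjusted p = 0.0719) and endothelial cells (3.11, adjusted p = 0.0669), and *Zmat4* against endothelial cells (-1.27, adjusted p = 0.195). Means of both genotypes were under 100 in podocytes and endothelial cells for *Tslp*, *Ptgs2*, *Frzb*, *Fam19a1*, *Col14a1*, *Nkain2*, *Serpinb1a* and *Zmat4*, and in endothelial cells also for *Aldh1a2*, *Thbs1*, *Glb1l2* and *Tmem182*, where the fold changes are between signals near background. No cause of the differences was tested.

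Among the 10 largest mesangial increases 8 were listed in both contrasts. Over all clusters 0.717% passed against podocytes and 1.07% against endothelial cells. These genes were picked for large mesangial changes on the same arrays, which favours a difference, so the count is no separate support. *Aldh1a2*, of retinoic acid synthesis, exceeded the podocyte effect by 3.36 (adjusted p = 0.000129) and the endothelial effect by 3.46 (adjusted p = 5.13e-05). *Thbs1*, thrombospondin-1, exceeded the podocyte effect by 2.43 (adjusted p = 0.0169) and the endothelial effect by 2.18 (adjusted p = 0.0227). *Frzb*, a Wnt antagonist, exceeded the podocyte effect by 2.41 (adjusted p = 0.0429) and the endothelial effect by 2.91 (adjusted p = 0.0121). *Tslp*, a cytokine, exceeded the podocyte effect by 2.40 (adjusted p = 0.000603) and the endothelial effect by 2.54 (adjusted p = 0.000306). *Ptgs2*, the inducible cyclooxygenase, exceeded the podocyte effect by 2.59 (adjusted p = 0.000134) and the endothelial effect by 2.62 (adjusted p = 9.69e-05). *Fam19a1*, a secreted chemokine-like protein, exceeded the podocyte effect by 2.42 (adjusted p = 0.00252) and the endothelial effect by 2.57 (adjusted p = 0.00159). *Errfi1*, an inhibitor of the EGF receptor, exceeded the podocyte effect by 1.97 (adjusted p = 0.00202) and the endothelial effect by 1.84 (adjusted p = 0.00355). *Col14a1*, a fibril-associated collagen, exceeded the podocyte effect by 1.97 (adjusted p = 0.00129) and the endothelial effect by 2.27 (adjusted p = 0.000306). *Fn1* and *Ociad2*, the others of the 10, passed in neither contrast.

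Among the 10 largest decreases 5 were listed, 3 of them in both contrasts, with the same limit from the way they were picked. *Glb1l2* differed by -1.82 (adjusted p = 0.0198) from podocytes and by -2.97 (adjusted p = 0.000277) from endothelial cells. *Serpinb1a* differed by -1.38 (adjusted p = 0.000392) from podocytes and by -1.81 (adjusted p = 3.87e-05) from endothelial cells. *Nkain2* differed by -1.54 (adjusted p = 0.00242) from podocytes and by -1.83 (adjusted p = 0.000492) from endothelial cells. *Tmem182* differed from endothelial cells, by -2.24 (adjusted p = 0.000306), and its contrast with podocytes did not pass. *Zmat4* differed from endothelial cells, by -1.74 (adjusted p = 0.016), and its contrast with podocytes did not pass.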

How the results depend on the processing

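The 143 higher and 192 lower calls moved with the choices of the fit. With a signal of 100 required on all 3 arrays of 1 genotype, limma called 244 and 334. With trend and robust options it called 366 and 363. With array weights it called 210 and 306, and in the fit over all 18 arrays 191 and 289. With sex as a covariate it called 1 and 0, while 217 and 294 passed the looser screen in that fit. With 1 array left out the calls ranged from 21 to 113 higher and from 29 to 195 lower, lowest in both directions without control array B and highest without control array C. Without control array A they were 50 and 68, and without mutant array A, B or C 38 and 44, 23 and 31, and 38 and 58. The looser screen of 238 and 357 clusters left 34 and 26 where the fold change had to exceed 2 and a signal 500. Of distinct list members 41 were called higher and 41 lower in the main setting, against 64 higher with the stricter minimum, 89 and 67 with trend and robust options, 26 lower with no minimum and 1 and 0 with sex as a covariate. With 1 array left out they ranged from 10 to 40 higher and from 11 to 38 lower. Of 91 genes followed singly that were called, 56 were called again with no minimum, 83 with array medians subtracted and 85 with arrays quantile normalized again. Of 85 others followed, 3 turned direction, all sex-linked and with sex as a covariate, *Xist* to -0.12, *Eif2s3y* to 0.0175 and *Uty* to 0.0334. The causes were not tested beyond the construction of each alternative. Interaction counts under trend and robust options were 78 against podocytes and 147 against endothelial cells, and 74 and 36 with sex as a covariate in the 18-array fit, an alternative chosen after seeing the data. No paired analysis was possible because the columns carry no replicate numbers shared between the genotypes. The number of arrays and the background floor of weak signals limit what could be called.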
